A study of Mus musculus with 12 samples.

Results

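Genes of autophagy and of the lysosome were followed in NU1, an immortal line of normal mouse urothelial cells, by RNA sequencing of 12 libraries. The set held 52 gene symbols of the 23337 in the deposited count table. They were chosen by name for their known roles, with earlier results of these data known. All 52 were found in the table and all 52 passed the filter on low counts, together with 12406 genes in all. The line became immortal spontaneously through repeated passage. Every library came from it, grown in a serum-containing medium with EGF, insulin and transferrin, T3, hydrocortisone and cholera toxin.

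The 4 groups had 3 libraries each, from experiments 5, 7 and 9, which the labels also give as batches. Proliferating control cells carried the lentiviral hairpin shNT and are given as WT in the labels. Proliferating knockdown cells carried the hairpin sh4 and are given as Stag2-KD. Quiescent control and quiescent knockdown cells carried the same hairpins. They were taken at day 7 of differentiation, after growth to confluence and then culture with 1 µM rosiglitazone and 0.5 µM erlotinib in the complete medium. Erlotinib inhibits the EGF receptor kinase, and rosiglitazone is an agonist of PPAR gamma, a nuclear receptor. Confluence, both drugs and time therefore came together in the quiescent groups and cannot be told apart. The knockdown rested on 1 hairpin in 1 line. Nothing in the labels says that the 3 experiments were more than repeat cultures of this line, so the p-values measure the spread between these cultures.

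Autophagy delivers cytoplasm to the lysosome for breakdown. The ULK kinase complex and a lipid kinase complex with Beclin 1 start a membrane cup, proteins of the Atg8 family are joined to its lipid by a conjugation cascade, and cargo receptors tie the load to them. The closed vesicle fuses with the lysosome, where a proton pump keeps the acid pH that cathepsins and glycosidases need. TFEB, TFE3 and MITF, the MiT transcription factors, drive many of these genes when the kinase complex mTORC1 is less active, and they are controlled largely by phosphorylation and by their place in the cell. In the umbrella cells that line the bladder, lysosomes also degrade membrane taken up from the surface.

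Library totals ran from 14524429 to 21987539 counts, and levels are given as CPM, counts scaled to the same total in every library. Stag2 itself was 107.5 to 146 CPM in the 6 control libraries and 9.43 to 33.3 CPM in the 6 knockdown libraries, lower in every one. Libraries of the same experiment deviated together from their group means (mean r = 0.526 across genes, 18 pairs). Markers of cell types were checked, and those named here were picked after their values were seen. Of the 20 urothelial markers, Krt20 had group means of 622.5 to 1537 CPM, and Krt5 and Krt14 of 9.08 CPM or less. The keratins Krt7, Krt8, Krt18 and Krt19 were abundant, with group means of 1466 to 8909 CPM, while the basal gene Trp63 had no count and the uroplakins Upk1a, Upk1b, Upk2, Upk3a and Upk3b had group means of 5.34 CPM or less. Of the 8 macrophage and leukocyte markers, Adgre1 and Tyrobp had no count. The summed level of the 8 was 40.3 to 89.98 CPM in proliferating control, 107 to 172 CPM in quiescent control and 165 to 292 CPM in quiescent knockdown libraries. Nearly all of it was Csf1r and Cd14, while the group means of Ptprc were at most 0.293 CPM. Their part in the results was not tested. In bulk RNA, more cells of a type and more RNA per cell cannot be told apart. The 8 fibroblast markers summed to 0.345 to 2.27 CPM and the 5 endothelial markers to at most 0.239 CPM in any library. The 6 proliferation markers summed to 894 to 1166 CPM in proliferating control and 62.9 to 108 CPM in quiescent control libraries. Their sums were 636 to 1287 CPM in proliferating knockdown and 87.3 to 185 CPM in quiescent knockdown libraries.

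As a share of all counts, the 52 genes held 0.908% ± 0.116 (SD, n = 3) in proliferating control and 1.36% ± 0.0993 (SD, n = 3) in quiescent control libraries. The shares were 0.995% ± 0.111 (SD, n = 3) in proliferating knockdown and 1.57% ± 0.244 (SD, n = 3) in quiescent knockdown libraries. The 6 quiescent libraries lay between 1.26% and 1.72%, and the 6 proliferating ones between 0.791% and 1.09%, so the states did not overlap. These are shares of a library, and a change in total RNA per cell cannot be seen in them. Abundant genes weigh most in such sums. Ctsd alone had a mean of 1678 CPM in proliferating control and 3201 CPM in quiescent control libraries.

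Per kilobase of exon, the most abundant of the 52 genes in proliferating control cells was Ctsd, at 714 CPM per kb ± 118 (SD, n = 3). Lamp1, Sqstm1 and Psap followed at 323 ± 47.4, 289 ± 144 and 275 ± 83.0 CPM per kb, and these 3 did not differ beyond their spread. In quiescent control cells Ctsd was again first, at 1362 CPM per kb ± 333, and Psap, at 475 ± 50.1, and Lamp1, at 429 ± 15.1, were next. The lowest were the regulators Tfeb, at 1.69 CPM per kb ± 0.622, and Mitf, at 0.150 ± 0.101, in proliferating control cells. Mitf had only 6 to 28 counts in a library, so its changes could hardly be measured.

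Quiescence was compared with proliferation first in control cells. Of the 52 genes, 16 rose and 0 fell past a threshold of 0.05 in edgeR's quasi-likelihood test. P-values were adjusted over all 12406 genes by the Benjamini-Hochberg method, and these adjusted p-values are given as FDR. Among all genes 8.33% rose and 11.7% fell by the same rule, against 30.8% of the 52 genes. The median log2 fold change of the 52 genes was 0.40, beside 0.00 over all genes, and 46 of the 52 had a positive value. Counted at an unadjusted p under 0.05 instead, 30 of the 52 genes passed, none of them lower, beside 4314 of all 12406. The DESeq2 Wald test gave 21 higher and 0 lower, beside 25.9% of all genes called. With the experiment as a block, 29 genes rose and 1 fell, where 16.8% and 18.5% of all genes did, 35.3% in all. In CPM, 30 of the 52 genes were higher in all 3 quiescent than in all 3 proliferating libraries and 0 were lower, where 17.1% and 18.5% of all genes were, 35.6% in all. Within experiments 5, 7 and 9 the median difference of the 52 genes was 0.26, 0.41 and 0.63 on the log2 scale.

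**Figure D1:**
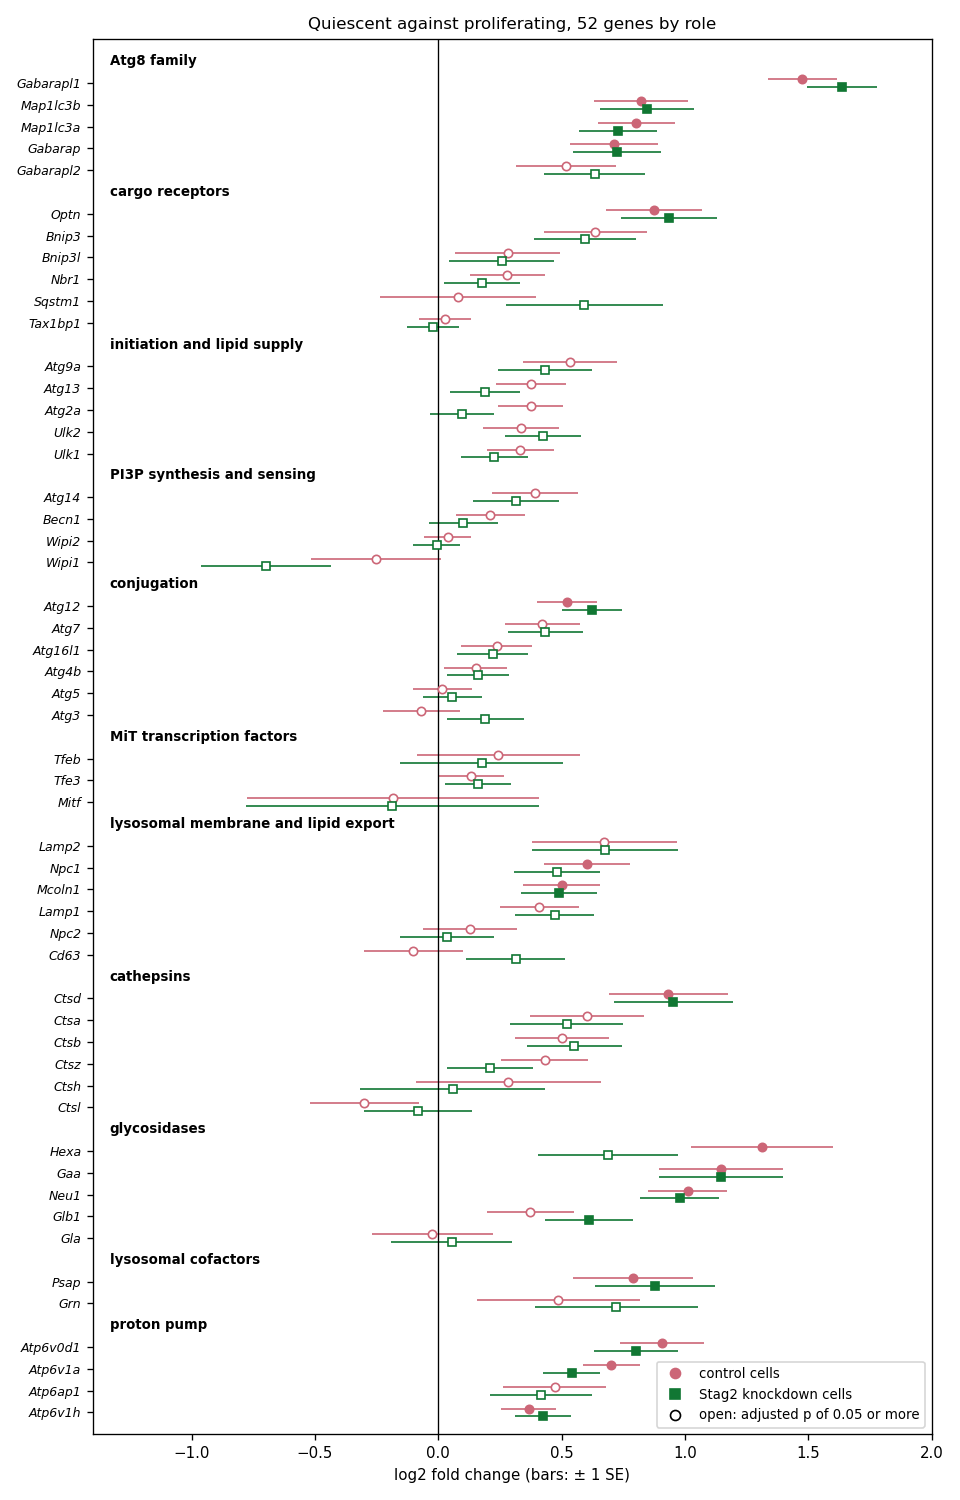
Log2 fold change of quiescent against proliferating cells (x axis, bars ± 1 SE) for each of the 52 genes (y axis, grouped by role), in control cells (circles) and Stag2 knockdown cells (squares). Filled symbols passed an edgeR FDR of 0.05; they number 16 and 15, and all lie to the right of 0.

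The Atg8 family, the small ubiquitin-like proteins that coat the autophagosome, had 5 members. Of these 4 rose, and Gabarapl2 did not pass the test. Gabarapl1, at chr6:129533160-129542346 on GRCm38, was 39.7, 41.1 and 38.4 CPM in the proliferating control libraries of experiments 5, 7 and 9. It was 113, 106 and 112 CPM in the quiescent control libraries. These levels were close to each other within a state and far apart between states. Its log2 fold change was 1.48 (SE 0.14, edgeR FDR = 8.18e-05), a 2.78-fold rise and the largest of the 52 genes. In knockdown cells Gabarapl1 went from 36.9, 49.3 and 48.2 CPM to 134, 121 and 163 CPM (log2 fold change 1.64, SE 0.14, edgeR FDR = 0.000160).

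Map1lc3b, which encodes the LC3B protein used as the standard mark of autophagosomes, was 255, 214 and 171 CPM in proliferating control and 422, 361 and 350 CPM in quiescent control libraries. Experiment 5 was the highest in both states, and the states did not overlap. The log2 fold change was 0.82 (SE 0.19, edgeR FDR = 0.0118). Map1lc3a and Gabarap rose by 0.80 (SE 0.16) and 0.71 (SE 0.18). Gabarapl2 showed a log2 difference of 0.52 (SE 0.20, edgeR FDR = 0.0950), although all 3 quiescent libraries lay above all 3 proliferating ones.

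Cargo receptors did not move together. Optn, a receptor for ubiquitinated cargo including mitochondria, rose and was the only one of 6 past the threshold in control cells without the block. It was 38.5, 23.2 and 23.7 CPM in proliferating control and 57.6, 51.6 and 47.1 CPM in quiescent control libraries (log2 fold change 0.87, SE 0.19, edgeR FDR = 0.00995). The proliferating library of experiment 5 stood above the other two, but below all quiescent ones. Bnip3, a mitochondrial receptor, showed a log2 difference of 0.64 (SE 0.21, edgeR FDR = 0.0505, with the block 0.0196). Bnip3l and Nbr1 both had 0.28, and Tax1bp1 had 0.03 (SE 0.11), the smallest standard error of the 6.

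Sqstm1 encodes p62, the best known cargo receptor, which is itself degraded by autophagy at the protein level. It was 543, 867 and 1496 CPM in proliferating control and 867, 1267 and 933 CPM in quiescent control libraries. The proliferating libraries of experiments 5 and 9 thus lay farther apart than the means of the states. Within experiments the difference was 0.67, 0.55 and -0.68 on the log2 scale, and the fitted log2 fold change was 0.08 (SE 0.32, edgeR FDR = 0.888). In knockdown cells it went from 594, 842 and 1007 to 1230, 1148 and 1305 CPM. There the 3 quiescent libraries lay above the 3 proliferating ones, with a log2 fold change of 0.59 (SE 0.32, edgeR FDR = 0.218, with the block 0.0691).

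The initiation and lipid supply genes had small positive values of similar size. Log2 fold changes in control cells were 0.33 for Ulk1 and 0.34 for Ulk2, the initiating kinases, 0.38 for their partner Atg13, 0.53 for the scramblase Atg9a and 0.37 for the lipid transfer protein Atg2a. In all 5 the quiescent and proliferating control libraries did not overlap. Without the block 0 of the 5 passed the test, with edgeR FDR from 0.0649 to 0.147. With the block 4 rose, and Ulk2 did not (edgeR FDR = 0.0878). In knockdown cells 0 passed without the block, and with it 2 did, Ulk2 and Atg9a.

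Of the genes that make or read the lipid PI3P, 0 of 4 passed the test in control or knockdown cells, with or without the block. Becn1, which encodes Beclin 1, showed a log2 difference of 0.21 and its partner Atg14 one of 0.39 in control cells. The PI3P reader Wipi2 had 0.04 (SE 0.10). Wipi1, a reader of the same family, was 71.6, 50.5 and 38.8 CPM in proliferating control and 48.5, 29.4 and 57.3 CPM in quiescent control libraries, which overlapped. In knockdown cells it was 69.4, 54.4 and 56.5 CPM against 31.2, 36.3 and 43.8 CPM. All quiescent libraries were lower there, with a log2 fold change of -0.70 (SE 0.26, edgeR FDR = 0.0900, with the block 0.0525).

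Among the 6 conjugation genes, Atg12, the ubiquitin-like protein joined to ATG5, rose. It was 72.0, 62.2 and 62.8 CPM in proliferating control and 95.7, 85.8 and 102 CPM in quiescent control libraries (log2 fold change 0.52, SE 0.12, edgeR FDR = 0.0124). Atg7, the activating enzyme of both conjugation systems, had 0.42 (edgeR FDR = 0.0739, with the block 0.0204). Atg3, Atg4b, Atg5 and Atg16l1 lay between -0.07 and 0.24 and did not pass, with or without the block.

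The MiT factors that act upstream of these genes did not pass the test as transcripts. Tfeb was 11.2, 11.95 and 5.51 CPM in proliferating control and 10.8, 13.4 and 9.78 CPM in quiescent control libraries, which overlapped (log2 fold change 0.24, SE 0.33, edgeR FDR = 0.642). Tfe3, at 56.2 CPM ± 3.26 (SD, n = 3) in proliferating and 61.6 ± 8.32 in quiescent control cells, was the most abundant of the 3 and showed a log2 difference of 0.13 (SE 0.14). Mitf had -0.18 (SE 0.59), an interval too wide to read. Activity of these proteins was not measured here.

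MiT factors bind a palindrome called the CLEAR element. It is TCACGTGA with a G before and a C after it, and its core CACGTG is an E-box that other factors also bind. Promoter windows from 250 bases before to 50 bases after the start site, from RefSeq on GRCm38.p6, were found for 43 of the 52 genes, all but Map1lc3a, Bnip3l, Becn1, Atg12, Atg16l1, Npc1, Ctsb, Ctsh and Atp6v1h. The whole palindrome occurred in 0 of the 43 and in 0.843% of 8900 tested genes with a window. Its inner 8 bases, TCACGTGA, occurred in 7 of the 43 (16.3%) and in 2.29% of tested genes. The core CACGTG, which includes those matches, occurred in 15 of the 43 (34.9%) and in 11.9%. Each motif is its own reverse complement, so 1 strand covers both. A match is a string of letters and not a measured binding site. The 52 genes were chosen by name for their roles, and MiT factors are known to drive many such genes. A share above that of all tested genes could thus be foreseen and is not a result of these data. The stretches around the 8-base matches are shown because they join genes that rose with genes that did not, with the match in capitals, 5′ to 3′ on the strand of the gene. Distances are from the first base of the match to the start site.
Ctsd, chr7:142387908-142387937, minus strand, 99 bases before the start: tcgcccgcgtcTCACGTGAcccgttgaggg
Atp6v0d1, chr8:105566050-105566079, minus strand, 4 bases before the start: ccctactgcggTCACGTGAgacgcggtgcg
Atp6v1a, chr16:44139373-44139402, minus strand, 132 bases before the start: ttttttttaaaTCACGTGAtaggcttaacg
Mcoln1, chr8:3500462-3500491, plus strand, 46 bases before the start: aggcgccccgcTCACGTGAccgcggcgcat
Ctsa, chr2:164833749-164833778, plus strand, 13 bases before the start: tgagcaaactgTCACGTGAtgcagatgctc
Ctsa, chr2:164833766-164833795, plus strand, 4 bases after the start: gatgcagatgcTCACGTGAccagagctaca
Gla, chrX:134601182-134601211, minus strand, 195 bases before the start: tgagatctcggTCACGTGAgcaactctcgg
Gla, chrX:134601215-134601244, minus strand, 228 bases before the start: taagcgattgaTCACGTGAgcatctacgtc
Atg3, chr16:45158746-45158775, plus strand, 72 bases before the start: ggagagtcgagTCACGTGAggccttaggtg

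Of these 7 genes, Ctsd, Atp6v0d1, Atp6v1a and Mcoln1 rose with quiescence in control cells. Ctsa rose with the block only, and Gla and Atg3 had log2 fold changes of -0.02 and -0.07. The median was 0.60 over the 7 genes and 0.38 over the 36 others with a window, of which 8 rose. For the 6-base core the medians were closer, 0.42 over the 15 genes with it and 0.38 over the 28 without. Of these, 5 and 7 rose. Whether a match goes with the rise was not tested. Lamp1 had 4 matches to the 6-base core within its window and none to the 8 bases. Gabarapl1, the gene with the largest rise, had no match to the core.

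Lysosomal membrane genes were mixed. Npc1, the membrane protein that exports cholesterol from lysosomes, was 68.2, 50.3 and 43.5 CPM in proliferating control and 80.4, 79.4 and 86.1 CPM in quiescent control libraries (log2 fold change 0.60, SE 0.17, edgeR FDR = 0.0326). Its lumenal partner Npc2 had 0.13 (SE 0.19). Mcoln1, the lysosomal calcium channel, rose by 0.50 (SE 0.16, edgeR FDR = 0.0435). Lamp1 and Lamp2, the main glycoproteins of the membrane, had 0.41 (edgeR FDR = 0.0922, with the block 0.0236) and 0.67 (edgeR FDR = 0.129, with the block 0.00461). Cd63, a tetraspanin of late endosomes, had -0.10 (SE 0.20).

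Lamp2 shows how the experiments entered these values. It was 375, 219 and 188 CPM in proliferating control and 514, 328 and 404 CPM in quiescent control libraries. It was higher in each experiment, by 0.46, 0.58 and 1.10 on the log2 scale, yet the proliferating library of experiment 5 lay above the quiescent library of experiment 7. Of the proliferating control libraries, that of experiment 5 also had the highest share of its counts in the 52 genes, 1.02% against 0.791% and 0.912% in experiments 7 and 9.

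**Figure D2:**
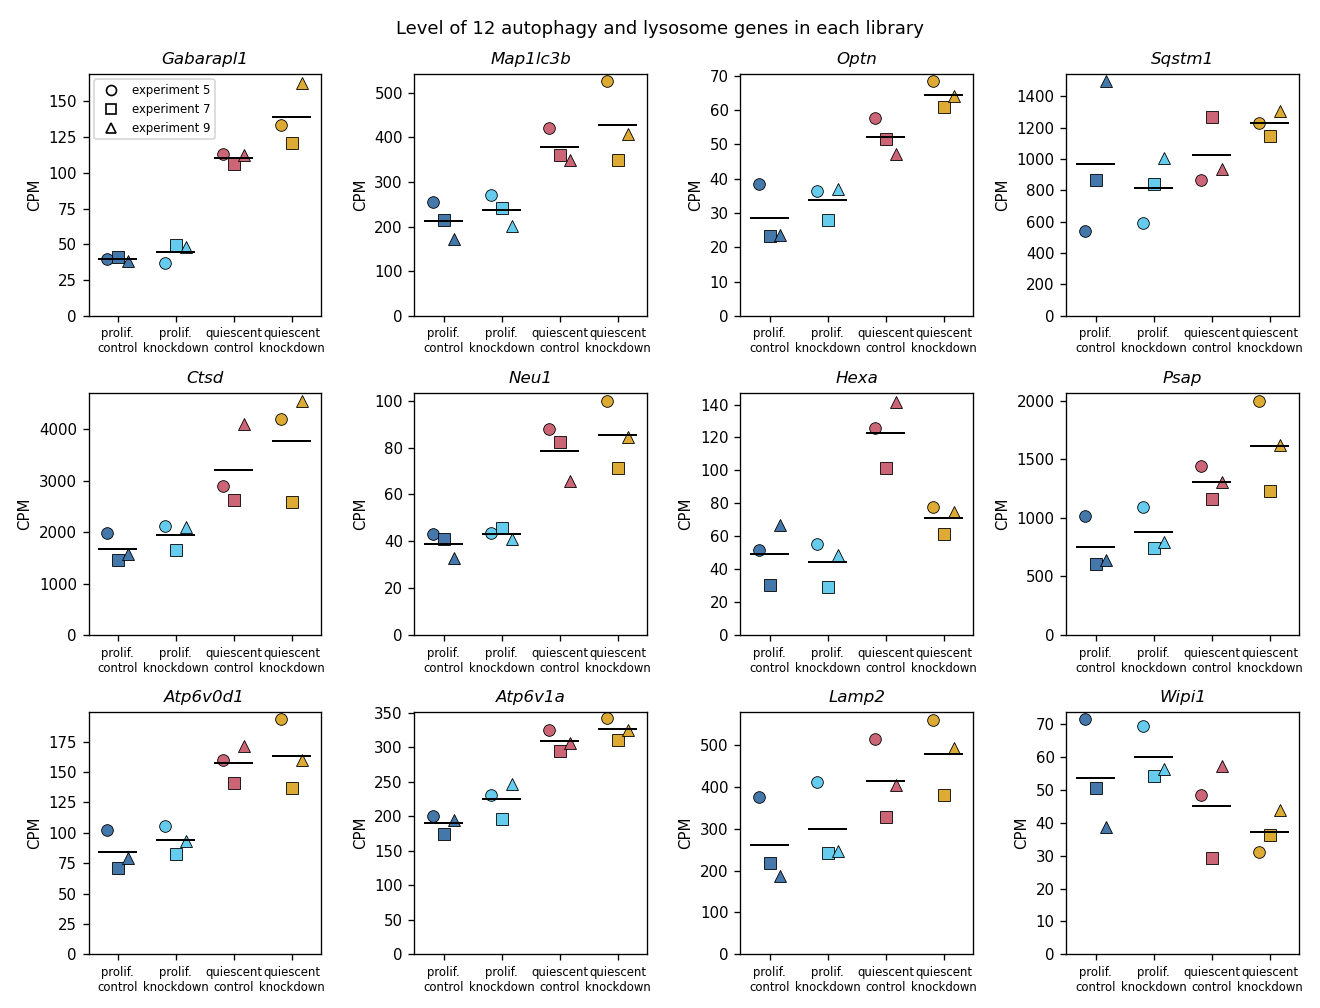
CPM (y axis) of 12 of the 52 genes in each library, by group (x axis); marker shape gives the experiment and horizontal lines are group means of 3 libraries. Gabarapl1 and Atp6v1a are separated by state, Sqstm1 and Wipi1 overlap between states in control cells, and Hexa is lower in quiescent knockdown than in quiescent control libraries.

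Of the 6 cathepsins, Ctsd, the main aspartic protease of lysosomes, rose. It was 1990, 1460 and 1583 CPM in proliferating control and 2897, 2617 and 4090 CPM in quiescent control libraries. The quiescent library of experiment 9 was the highest. The log2 fold change was 0.93 (SE 0.24, edgeR FDR = 0.0204). Ctsa and Ctsb, a serine and a cysteine protease, had 0.60 and 0.50 and passed with the block (edgeR FDR = 0.00365 and 0.0115). Ctsl, another cysteine protease, was the only gene of the 52 to fall with the block, with a log2 fold change of -0.30 (edgeR FDR = 0.0483, without the block 0.360). The aminopeptidase Ctsh and the carboxypeptidase Ctsz had 0.28 and 0.43 and passed in neither fit.

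Glycosidases gave the largest changes after Gabarapl1, and 3 of 5 rose. Hexa, the alpha chain of beta-hexosaminidase, at chr9:59539540-59565109 on GRCm38, was 51.4, 30.3 and 66.9 CPM in proliferating control and 126, 102 and 142 CPM in quiescent control libraries. All quiescent control libraries were higher. Its log2 fold change was 1.31 (SE 0.29, edgeR FDR = 0.00911). Gaa, the alpha-glucosidase that breaks down lysosomal glycogen, went from 89.1, 73.4 and 129 to 203, 186 and 254 CPM (log2 fold change 1.14, SE 0.25, edgeR FDR = 0.00925). Neu1, the lysosomal sialidase, showed a log2 difference of 1.01 (SE 0.16, edgeR FDR = 0.00159), and its differences within experiments were 1.02, 1.00 and 1.00. The beta-galactosidase Glb1 had 0.37 (edgeR FDR = 0.1603, with the block 0.0368), and the alpha-galactosidase Gla had -0.02 (SE 0.25).

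Psap encodes the precursor of the saposins, which present lipids to lysosomal enzymes. It was 1016, 607 and 638 CPM in proliferating control and 1439, 1164 and 1305 CPM in quiescent control libraries, with no overlap (log2 fold change 0.79, SE 0.24, edgeR FDR = 0.0414). Grn, which encodes progranulin, a lysosomal cofactor, had 0.49 (edgeR FDR = 0.323, with the block 0.0384). Within experiment 5 Grn was 344 CPM in both states, and in experiments 7 and 9 it was higher in quiescence by 0.84 and 0.85 on the log2 scale.

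Of the 4 proton pump genes, 3 rose. Atp6v0d1, a subunit of the membrane sector, was 102, 70.8 and 79.0 CPM in proliferating control and 160, 141 and 172 CPM in quiescent control libraries (log2 fold change 0.91, SE 0.17, edgeR FDR = 0.00422). Atp6v1a, the catalytic subunit, was 201, 174 and 194 CPM against 324, 294 and 307 CPM (log2 fold change 0.70, SE 0.12, edgeR FDR = 0.00207). In both genes every quiescent library lay above every proliferating one. Atp6v1h rose by 0.37 (SE 0.11, edgeR FDR = 0.0410), and the accessory subunit Atp6ap1 had 0.47 (edgeR FDR = 0.132, with the block 0.00576).

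The number of calls moved with single libraries, in fits without the block. Fits with the block were not repeated with a library left out. The count of 16 became 25 without the proliferating control library of experiment 5, 9 without that of experiment 7 and 10 without that of experiment 9. With any 1 of the 12 libraries left out, 9 of the 16 genes stayed past the threshold each time, namely Gabarapl1, Map1lc3a, Map1lc3b, Optn, Gaa, Hexa, Neu1, Atp6v0d1 and Atp6v1a. Atg12 was lost without proliferating control 7 (edgeR FDR = 0.0556). Gabarap was lost without proliferating control 7 or 9 (0.0602 and 0.0704), and Ctsd without either of them or quiescent control 9 (0.0834, 0.0688 and 0.0802). Npc1 was lost in 5, Psap in 6, and Mcoln1 and Atp6v1h in 8 of the 12 fits. The library that raised the edgeR FDR most was proliferating control 7 for Psap and Mcoln1 (0.150 and 0.1596), proliferating control 9 for Npc1 (0.115) and quiescent control 9 for Atp6v1h (0.121). In all these fits the log2 fold changes stayed positive.

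Quiescence in knockdown cells was compared between the other 6 libraries. The fit to all 12 libraries shares 1 estimate of the spread, so the comparisons in control and knockdown cells are not independent. Of the 52 genes, 15 rose and 0 fell, where 7.59% and 10.8% of all genes did, 18.4% in all. The median log2 fold change was 0.43, and 47 of the 52 values were positive. By the unadjusted p, 27 genes were under 0.05, 1 of them lower (Wipi1), beside 4089 of all 12406. The DESeq2 Wald test gave 22 higher and 0 lower, beside 24.1% of all genes called. With the block, 28 rose and 0 fell, where 15.9% and 17.2% of all genes did, 33% in all. Groups did not overlap in 26 of the 52 genes, 25 higher and 1 lower, where 18.1% and 19.1% of all genes were, 37.2% in all. Within experiments 5, 7 and 9 the medians were 0.36, 0.37 and 0.56.

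Both comparisons called 14 genes, which are 87.5% of the 16 called in control and 93.3% of the 15 called in knockdown cells. The same overlap was not counted over all genes, so these percentages cannot be read as particular to the 52 genes. Npc1 and Hexa were called in control cells alone and Glb1 in knockdown cells alone. In knockdown cells Npc1 showed a log2 difference of 0.48 (edgeR FDR = 0.0777, with the block 0.0461), Hexa 0.69 (0.117, with the block 0.00620) and Glb1 0.61 (0.0358). The interaction, which tests whether the effect of quiescence differed between control and knockdown cells, called 0 of the 52 genes, with and without the block, in edgeR and in DESeq2. In edgeR it called 0 of all 12406 genes, with and without the block, so a count of 0 is not particular to these genes. Its unadjusted p was under 0.05 for 0 of the 52 genes, and for Hexa alone with the block, beside 219 and 590 of all 12406. Of the 52 genes, 44 had a 95% interval of the interaction that lay within a 2-fold difference either way, and 48 with the block.

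Single libraries counted here too, again in fits without the block. The 15 calls became 9 without proliferating knockdown 9 or without quiescent knockdown 5, and 10 without proliferating knockdown 7 or without quiescent knockdown 9. Gabarapl1, Map1lc3a, Map1lc3b, Optn, Atg12, Gaa, Neu1, Atp6v0d1 and Atp6v1a stayed past the threshold in all 12 fits. Glb1 was lost in 5 of them, with an edgeR FDR of up to 0.139 without quiescent knockdown 5, and Mcoln1 in 10. Gabarap and Atp6v1h were lost in 3 fits each and Ctsd and Psap in 4 each, all of them fits without 1 library of the knockdown groups.

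**Figure D3:**
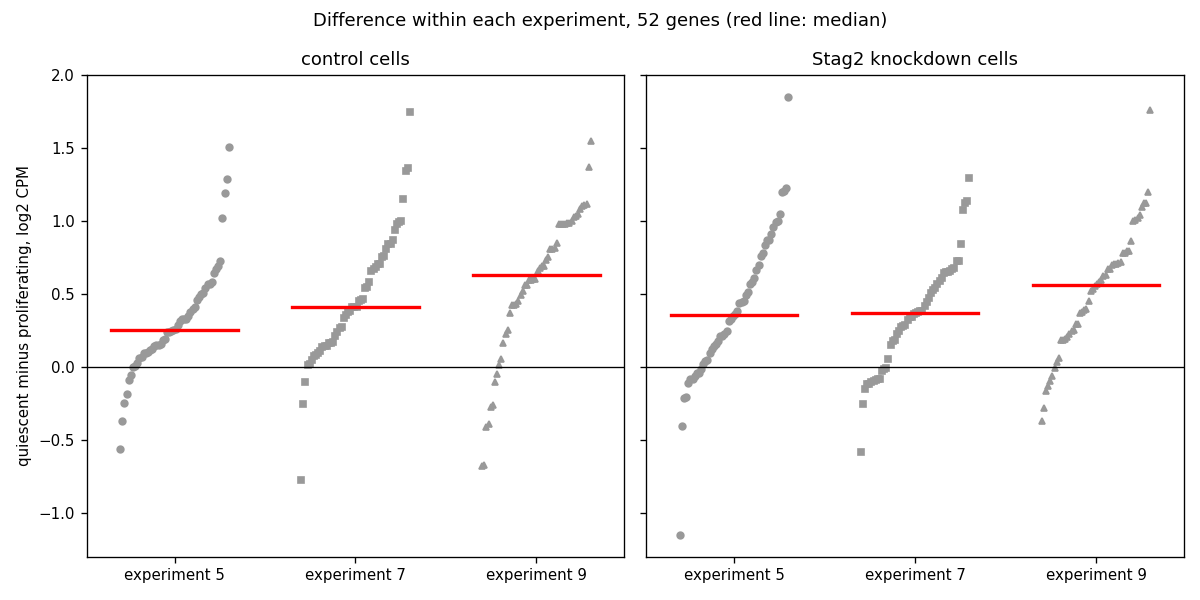
Difference between quiescent and proliferating cells within each experiment (y axis, log2 CPM) for the 52 genes, 1 point a gene, sorted within each experiment (x axis); red lines are medians. In control cells the medians are 0.26, 0.41 and 0.63, in knockdown cells 0.36, 0.37 and 0.56, and in every experiment some genes lie below 0.

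The Stag2 knockdown was compared with control cells within each state. In proliferating cells it called 0 of the 52 genes with or without the block, where 0.0242% of all genes were called. The unadjusted p was under 0.05 for 0 of the 52 genes, or 1 with the block, beside 228 and 645 of all 12406. The DESeq2 Wald test also called 0. Log2 fold changes ran from -0.25 for Sqstm1 to 0.33 for Ctsz, and 40 of the 52 were positive. The median was 0.12, beside 0.00 over all genes, and it was 0.05, 0.11 and 0.19 in experiments 5, 7 and 9. It was 0.24 without proliferating control 5 and 0.0254 without proliferating knockdown 5. The groups overlapped in all 52 genes, where they did not in 5.31% of all genes, 2.66% higher and 2.65% lower. For 51 of the 52 genes the 95% interval lay within a 2-fold change either way, and for all 52 with the block. Atp6v1a, the 1 gene with an unadjusted p under 0.05 with the block, showed a log2 difference of 0.24 (edgeR FDR = 0.948 with the block).

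In quiescent cells the knockdown called 0 of the 52 genes without the block, where 0.435% of all genes were called, 0.153% higher and 0.282% lower. With the block it called 1, where 3.55% were called, 1.59% higher and 1.96% lower. The DESeq2 Wald test called 0. Hexa, Gabarapl1 and Cd63 were the 3 genes with an unadjusted p under 0.05, beside 1489 of all 12406. The median log2 fold change was 0.09, beside 0.02 over all genes, and it was 0.0119 without quiescent knockdown 5. It was 0.14, 0.0066 and 0.08 in experiments 5, 7 and 9. For 49 of the 52 genes the 95% interval lay within a 2-fold change, and for 50 with the block.

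Hexa was the gene called with the block, and it was lower. It was 126, 102 and 142 CPM in quiescent control and 77.7, 61.4 and 75.0 CPM in quiescent knockdown libraries. Every knockdown library was lower than every control library, and the differences within experiments were -0.69, -0.73 and -0.91 on the log2 scale. The log2 fold change was -0.78 (SE 0.28, edgeR FDR = 0.298) without and -0.78 (SE 0.16, edgeR FDR = 0.0281) with the block. Over the other alternatives, each without the block, the FDR of Hexa ran from 0.105 to 0.678 and the log2 fold change from -0.91 to -0.67. In proliferating cells the groups overlapped, with 51.4, 30.3 and 66.9 CPM in control and 55.2, 29.1 and 48.7 CPM in knockdown cells (log2 fold change -0.16, SE 0.28). The interaction of Hexa was -0.62 (SE 0.40, unadjusted p = 0.148, edgeR FDR = 0.9997), and with the block -0.63 (unadjusted p = 0.0174, edgeR FDR = 0.913).

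Cd63 and Gabarapl1 had positive values. Cd63 was 193, 262 and 251 CPM in quiescent control and 330, 296 and 354 CPM in quiescent knockdown libraries (log2 fold change 0.47, SE 0.20, edgeR FDR = 0.383, with the block 0.0883). Gabarapl1 was 113, 106 and 112 CPM against 134, 121 and 163 CPM (log2 fold change 0.33, SE 0.14, edgeR FDR = 0.360, with the block 0.182). Neither pair of groups overlapped, and neither gene passed the test. Non-overlapping groups were found in 6 of the 52 genes here, 5 of them higher and 1 lower, where 10.2% of all genes were higher and 8.85% lower, 19.1% in all. Csf1r, 1 of the 8 macrophage and leukocyte markers above, was 34.1, 59.7 and 32.3 CPM in quiescent control libraries. It was 108, 104 and 163 CPM in quiescent knockdown libraries (log2 fold change 1.57, SE 0.40, edgeR FDR = 0.128, with the block 0.0385). Cd14 had 0.36 and passed in neither fit. The part of these markers was not tested.

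**Figure D4:**
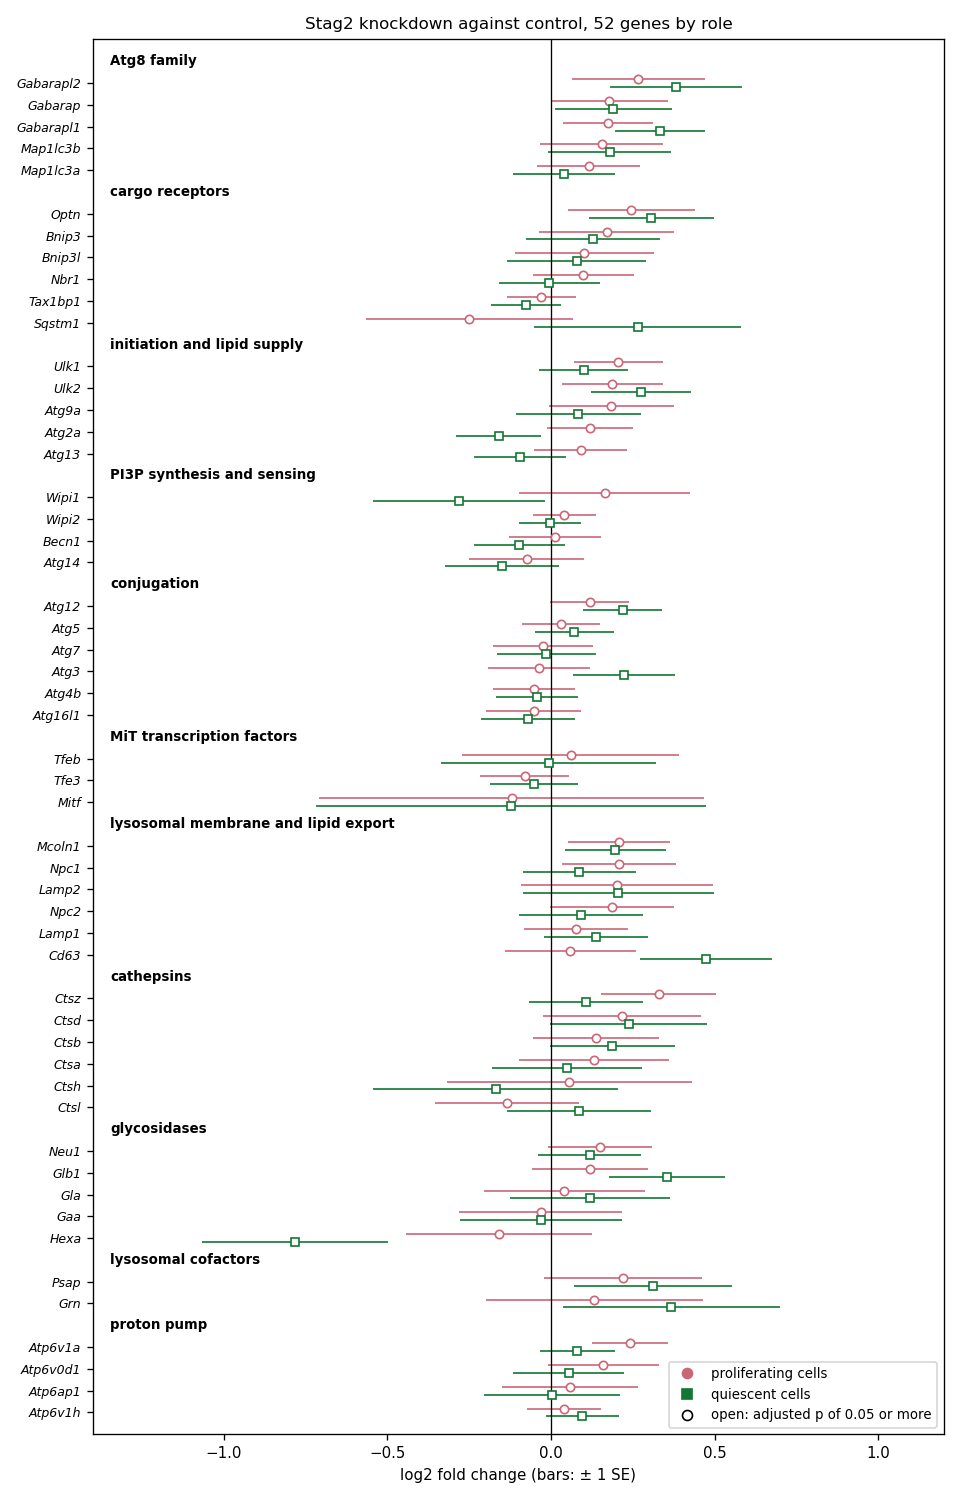
Log2 fold change of Stag2 knockdown against control cells (x axis, bars ± 1 SE) for each of the 52 genes (y axis, grouped by role), in proliferating (circles) and quiescent cells (squares). All symbols are open, since 0 genes passed an edgeR FDR of 0.05 without the block; Hexa in quiescent cells lies farthest from 0, at -0.78.

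Other genes of the same pathways were read from lists kept apart from the 52, also chosen with earlier results of these data known. They held 119 genes, of which 112 were tested. With quiescence in control cells 31 rose and 0 fell (27.7%, where 8.33% of all genes rose and 20% changed either way). With the block 54 rose and 0 fell, where 16.8% and 18.5% of all genes did. By the unadjusted p, 53 of the 112 were under 0.05, 1 of them lower, beside 4314 of all 12406. DESeq2 gave 39 higher and 0 lower, beside 25.9% of all genes called. The median log2 fold change was 0.36. By group, 10 of 28 further lysosomal enzymes rose, 5 of 15 membrane and sorting genes, 5 of 12 proton pump genes, 8 of 31 autophagy genes and 3 of 26 upstream control genes.

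Among the genes that passed the test, the largest changes were in Rragd, Sort1, Idua, Ctns and Smpd1. Sort1, the sorting receptor sortilin that carries enzymes to lysosomes, was 16.7 CPM ± 4.03 (SD, n = 3) in proliferating control and 52.4 ± 1.201 in quiescent control cells (log2 fold change 1.65, SE 0.22, edgeR FDR = 0.000523). Idua, the alpha-iduronidase, had 1.26, the cystine exporter Ctns 1.23 and the acid sphingomyelinase Smpd1 1.04. Rragd, a GTPase that helps bring mTORC1 to the lysosome and is a known target of MiT factors, had the largest log2 fold change, 3.61 (SE 0.86, edgeR FDR = 0.0136). It was low, however, at 0.321 CPM ± 0.180 in proliferating control and 1.73, 2.39 and 7.87 CPM in the quiescent control libraries of experiments 5, 7 and 9. Flcn, a regulator of the same GTPases, and its partner Fnip1 rose by 0.51 and 0.50. Atp6v0c, a proton pump subunit, had 2 to 11 counts in a library and was not tested.

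In knockdown cells 26 of the 112 rose with quiescence and 0 fell, where 7.59% and 10.8% of all genes did. With the block 45 rose and 2 fell, Gusb and Prkaa1, where 15.9% and 17.2% of all genes did. The unadjusted p was under 0.05 for 47 of the 112, 1 of them lower, beside 4089 of all 12406. DESeq2 gave 34 higher and 0 lower, beside 24.1% of all genes called. The knockdown in proliferating cells called 0 of the 112, where 0.0242% of all genes were called. The unadjusted p there was under 0.05 for 2 of the 112, beside 228 of all 12406, and DESeq2 called 1 lower. In quiescent cells the knockdown called 1, Prkaa1, which was lower, where 0.435% of all genes were called, 0.282% lower. With the block it called 6, all lower, where 1.96% of all genes were called lower and 1.59% higher. The unadjusted p was under 0.05 for 23 of the 112, 16 of them lower, beside 1489 of all 12406. DESeq2 gave 1 higher and 7 lower, beside 3.14% of all genes called. Prkaa1 encodes a catalytic subunit of AMPK, a kinase that activates ULK1. It was 94.1, 88.8 and 87.3 CPM in quiescent control and 40.9, 50.8 and 39.96 CPM in quiescent knockdown libraries (log2 fold change -1.04, SE 0.12, edgeR FDR = 0.00530). In proliferating cells it was 79.1, 87.9 and 74.6 against 57.1, 54.3 and 50.5 CPM, again without overlap. There edgeR did not call it (log2 fold change -0.58, edgeR FDR = 0.705, with the block 0.244). With the block the acid ceramidase Asah1, the lysosomal enzymes Aga and Gusb, the proton pump subunit Atp6v0a2 and Vmp1, a membrane protein of autophagosome formation, were also lower in quiescent cells, with log2 fold changes of -0.79, -0.78, -0.54, -0.60 and -0.57. Off-target effects of the single hairpin were not tested.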

How the data were processed

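RNA abundance was measured in 12 libraries, 3 in each of 4 groups. Per the labels' protocols, polyadenylated RNA was made into stranded libraries. The authors deposited raw counts per gene symbol, 1 column per library. Bowtie, TopHat, HTSeq and DESeq2 and the build mm10 are named in the submitters' processing notes, with no versions. How strand and reads of near-identical genes or retrocopies were counted is not given in the sources used here, so such genes are uncertain.

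The 52 genes and all lists were chosen with earlier results of these data known, and the values shown library by library include genes picked after their values were seen. Genes were kept by filterByExpr (minimum count 10), scaled by TMM and fitted with edgeR 4.0.16 in R 4.3.3 to 4 group means (glmQLFit, glmQLFTest), with Benjamini-Hochberg adjustment over all 12406 tested genes and a threshold of 0.05. Each SE is the log2 fold change over the root of F, and 95% intervals use the fit's degrees of freedom. CPM uses TMM-scaled totals, and differences within experiments use log2 CPM with a prior count of 2. The block adds the experiment number, which the labels give as batch and which pairs libraries (r from 0.225 to 0.789 over 18 same-experiment pairs). Genes named with values were all 52, Stag2, and of the other lists the 5 largest changes each way among those called with quiescence in control cells (none was lower) and those called after knockdown. Flcn, Fnip1, Atp6v0c and the markers were added after their values were seen. Exon lengths came from GENCODE M21 and promoters from RefSeq (GRCm38.p6). No set of genes was tested as a set. The fit was tried on simulated counts without differences between experiments and with a smaller spread than in the fit without the block. That trial therefore cannot tell how either fit handles the pairing. Alternatives were the block, median-of-ratios scaling, DESeq2 1.42.0, other count filters, fits to the libraries of a contrast and leaving out each library. Total-count scaling and leaving out each experiment were added after seeing the data.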

Additional observations from a re-analysis of the deposited data

How the results depend on the processing

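Directions were followed only for genes past the threshold in the main fit or in the alternative, and none of these reversed. Genes past it in neither fit were not followed, so their directions may have changed. The replicate block, which is the paired analysis, moved the calls from 16 to 30 for quiescence in control cells, from 15 to 28 for quiescence in knockdown cells and from 0 to 1 for the knockdown in quiescent cells. It contained all 16 and all 15 earlier calls and changed no other count. The other settings for all 12 or the 6 compared libraries kept the calls within 12 to 21 for quiescence in control and 13 to 22 in knockdown cells. Leaving out 1 library, always without the block, gave 9 to 25 calls for quiescence in control and 9 to 19 in knockdown cells. It gave 0 calls for the knockdown in either state and for the interaction. It gave medians of 0.0254 to 0.24 for the knockdown in proliferating cells, 0.0119 to 0.15 for the knockdown in quiescent cells and -0.14 to 0.053 for the interaction. The lowest interaction median came without proliferating control 5. Leaving out a whole experiment, also without the block, left fewer libraries to test on. It gave 3 and 5 calls in control cells without experiments 7 and 9, and 16 without experiment 5. In knockdown cells it gave 6, 3 and 10 calls without experiments 7, 9 and 5. Gabarapl1 and Neu1 were the only 2 genes called in each of these fits in both control and knockdown cells. Total-count scaling moved the median of all genes by at most 0.05. Depth limited Mitf most, with 6 to 28 counts in a library.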
